A study of Rattus norvegicus with 24 samples.

Results

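The solute carrier genes followed in rat kidney were Slc22a13 (ENSRNOG00000056476), Slc26a1 (ENSRNOG00000000041), Slco2a1 (ENSRNOG00000009005) and Xpr1 (ENSRNOG00000000042). They were chosen by name as transporters of organic anions, sulfate, prostaglandins and phosphate, with earlier results of these data known. They are 4 of the 32883 genes in the count table, and all 4 were among the 14212 genes with enough reads to be tested. RNA-seq was done on kidney cross-sections holding cortex and medulla from 12 female rats about 2 months old, 3 in each of 4 groups. The CD-NP and CD-P18 groups were non-pregnant and day 18 pregnant Sprague Dawley (CD) rats, an outbred stock, and the BN-NP and BN-P18 groups were the same stages of the inbred Brown Norway (BN) rat. Pregnant rats had been mated with a male of their own strain, no drug or transgene was used, and the BN pregnancy served the study as a model of a complicated pregnancy.

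Each of these carriers moves a different solute across the plasma membrane of kidney cells. Slc22a13 (OAT10) is an apical exchanger of the proximal tubule that takes up urate and nicotinate in exchange for other organic anions. Slc26a1 (SAT1) sits in the basolateral membrane of the proximal tubule and exchanges sulfate for oxalate or bicarbonate, so that sulfate reclaimed from the filtrate can return to the blood. Slco2a1 takes prostaglandins into cells, where they are broken down, which ends their signal. Xpr1 exports inorganic phosphate from cells and is made in most cell types. In pregnancy the kidney filters more blood, and reabsorption by the tubule changes with it.

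The bases around the start of each gene are shown because the same kidneys were also read by RRBS, a bisulfite method that samples CpG-rich DNA cut at CCGG, and the 4 genes differ in how many CpGs stand at their start. RefSeq start windows (GRCr8, from 250 bases before to 50 bases after the start, 300 bases) were found for 4 of 4 genes. They lie at chr8:127811701-127812000 on the minus strand for Slc22a13, chr14:1184721-1185020 on the plus strand for Slc26a1, chr8:112467489-112467788 on the plus strand for Slco2a1 and chr13:70136115-70136414 on the minus strand for Xpr1. Capitals mark the CpG dinucleotides.
Slc22a13: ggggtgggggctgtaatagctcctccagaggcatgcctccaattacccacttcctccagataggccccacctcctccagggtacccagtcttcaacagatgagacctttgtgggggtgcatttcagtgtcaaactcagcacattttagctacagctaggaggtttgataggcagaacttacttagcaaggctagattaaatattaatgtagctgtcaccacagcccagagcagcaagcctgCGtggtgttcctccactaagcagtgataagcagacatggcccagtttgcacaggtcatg
Slc26a1: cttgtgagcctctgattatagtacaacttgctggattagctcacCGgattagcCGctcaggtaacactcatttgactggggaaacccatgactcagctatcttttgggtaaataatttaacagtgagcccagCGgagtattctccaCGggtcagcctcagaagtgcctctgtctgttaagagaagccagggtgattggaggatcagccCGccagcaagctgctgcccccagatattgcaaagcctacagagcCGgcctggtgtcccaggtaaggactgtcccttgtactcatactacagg
Slco2a1: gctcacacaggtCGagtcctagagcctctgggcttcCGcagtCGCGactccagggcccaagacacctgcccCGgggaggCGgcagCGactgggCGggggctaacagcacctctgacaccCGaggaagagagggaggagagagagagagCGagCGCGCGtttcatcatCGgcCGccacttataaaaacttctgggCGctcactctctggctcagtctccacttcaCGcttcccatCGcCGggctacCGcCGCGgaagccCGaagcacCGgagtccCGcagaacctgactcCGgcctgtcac
Xpr1: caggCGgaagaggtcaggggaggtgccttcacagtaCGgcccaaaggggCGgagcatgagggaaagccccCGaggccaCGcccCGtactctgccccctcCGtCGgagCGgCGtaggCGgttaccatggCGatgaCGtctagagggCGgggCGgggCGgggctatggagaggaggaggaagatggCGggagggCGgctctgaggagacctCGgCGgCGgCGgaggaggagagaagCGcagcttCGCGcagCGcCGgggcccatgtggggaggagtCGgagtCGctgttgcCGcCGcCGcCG
The Slc22a13 window held 1 CpG and the Slc26a1 window 6, against a median of 7 over all 33469 RefSeq windows of this length. The Slco2a1 window held 26 CpGs and the Xpr1 window 33, more than 84.8% and 92.5% of all windows. G and C made up 51%, 51.3%, 65.0% and 71.3% of the bases in the same order, against a median of 51.7%. The letters CCGG, which read the same on both strands, occurred 4 times in the Slco2a1 window, 2 times in that of Slc26a1 and 1 time in that of Xpr1, and were not in that of Slc22a13. Of all windows, 51.4% held them at least 1 time. CpGs at these starts were not analysed here, because the RRBS positions are on another build, Rnor6.0.

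**Figure D1:**
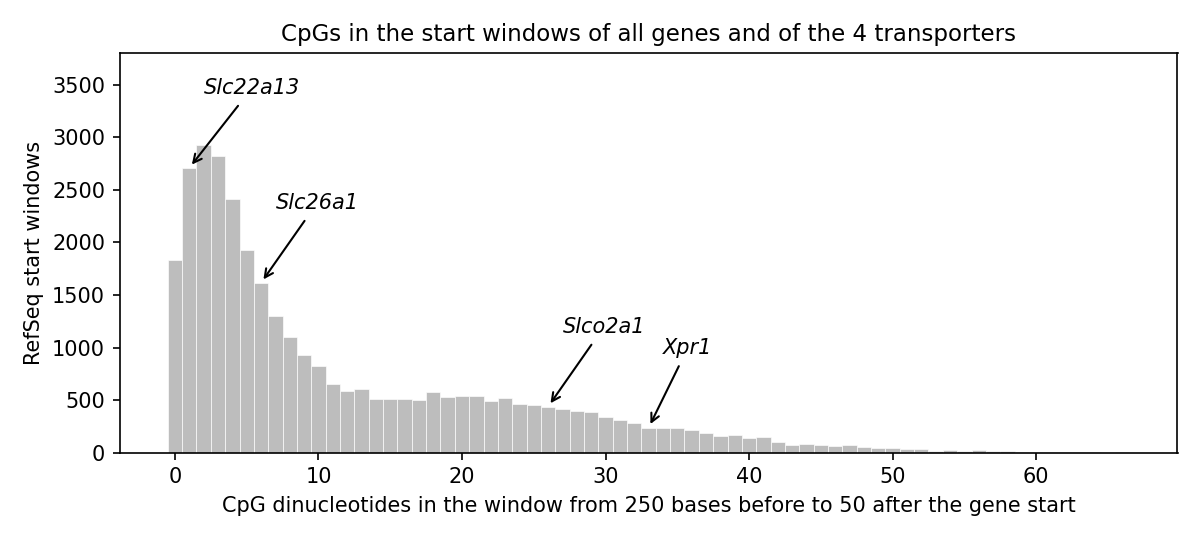
Number of CpG dinucleotides in the 300-base start window of every RefSeq gene on GRCr8 (bars, count of windows) with the 4 transporters marked by arrows. Slc22a13 (1 CpG) and Slc26a1 (6) stand below the median of 7, and Slco2a1 (26) and Xpr1 (33) in the upper tail.

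Levels are given as CPM, the reads of a gene as a share of the gene reads of that rat (counts per 1e+06) after scaling by TMM, which aligns libraries on genes that differ little between them. Between 8274159 and 11879451 reads per rat were counted for genes, and each of the 4 transporters had 469 to 1633 reads in every rat. Levels of different genes are not compared, since CPM is not divided by gene length. Reads on the overlapping gene Idua may have been counted for Slc26a1 or lost to it, and Slco2a1 overlaps an annotated pseudogene (LOC120094519). Whether the counting used strand is not given in the sources used here. Differences between groups are log2 ratios with their standard error (SE) from a quasi-likelihood fit in edgeR over all genes, and an adjusted p is the Benjamini-Hochberg value over the 14212 genes. A gene was called changed at an adjusted p under 0.1 with a difference over 0.322 on the log2 scale to either side, the study's thresholds. Interactions were called on the adjusted p alone. All p-values rest on 3 rats per group, and labels name no batch.

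**Figure D2:**
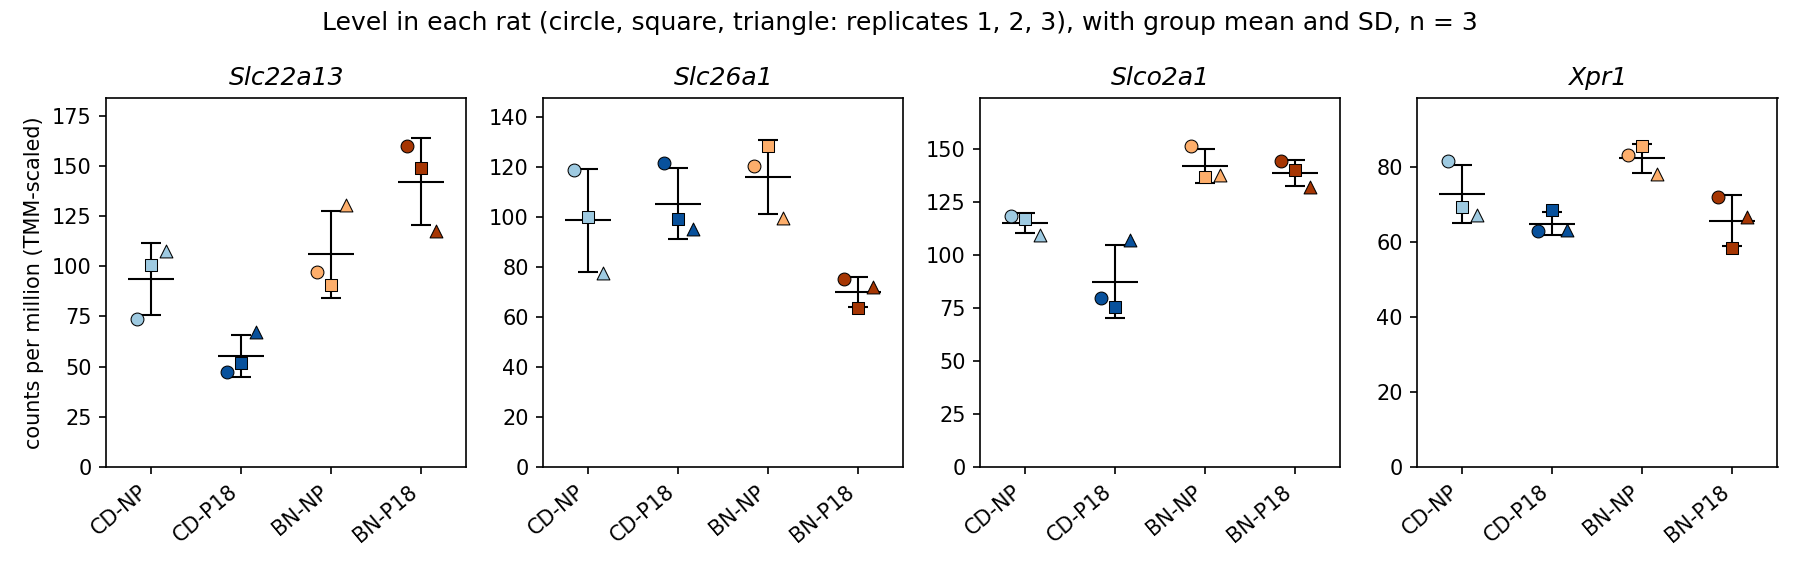
TMM-scaled CPM of the 4 transporters in each of the 12 rats (points, 3 per group, with the marker shape giving the replicate number) and the group mean with its SD (bars). The 3 CD-P18 rats are lowest for Slc22a13 and Slco2a1, and the 3 BN-P18 rats are lowest for Slc26a1.

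Pregnancy was accompanied by lower Slc22a13 and Slco2a1 in CD kidneys and by lower Slc26a1 in BN kidneys. At day 18 the strains differed in 3 of the 4 genes, with more Slc22a13 and Slco2a1 and less Slc26a1 in BN. In non-pregnant rats no member passed the test between strains. Xpr1 passed in no comparison between groups.

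Slc22a13, the urate and nicotinate exchanger, had 73.5, 101 and 107 CPM in the CD-NP rats and 47.2, 51.7 and 67.1 CPM in the CD-P18 rats. Every pregnant CD rat was below every non-pregnant one. In BN-NP rats the levels were 97.0, 90.4 and 131 CPM, and in BN-P18 rats 160, 149 and 118 CPM. The 2 BN groups overlapped, because the lowest pregnant rat lay under the highest non-pregnant one. The group means ± SD (n = 3) were 142 ± 21.8 in BN-P18, 106 ± 21.6 in BN-NP, 93.9 ± 17.9 in CD-NP and 55.3 ± 10.4 in CD-P18. In order of level, BN-P18, BN-NP and CD-NP overlapped with their neighbours, and only CD-P18 stood apart from the group above it.

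In CD, Slc22a13 fell by 0.76 on the log2 scale with pregnancy (SE 0.18, edgeR adjusted p = 0.0379), a level 1.70-fold lower. In BN its difference was 0.42 (SE 0.17, adjusted p = 0.404, 95% interval 0.05 to 0.80) and was not called. The pregnancy difference in BN minus that in CD, the interaction, was 1.18 (SE 0.25, adjusted p = 0.0606, 95% interval 0.65 to 1.72), which passed the test. Between strains Slc22a13 did not pass in non-pregnant rats (0.18, SE 0.18, adjusted p = 0.622) and was 2.57-fold higher in BN at day 18 (log2 1.36, SE 0.18, adjusted p = 0.000471). The day 18 strain difference was called with any of the 12 rats left out (1.26 to 1.52). The CD difference was called in 8 of 12 such fits (-0.92 to -0.65) and missed the threshold without CD-NP replicate 2 or 3 or CD-P18 replicate 1 or 2, with adjusted p up to 0.147. The interaction was called in 4 of 12 such fits (1.08 to 1.36, adjusted p 0.0325 to 0.2).

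Slc26a1, the sulfate exchanger, had 119, 99.9 and 77.4 CPM in CD-NP rats and 121, 99.3 and 95.2 CPM in CD-P18 rats. The ranges of the 2 CD groups overlapped. The BN-NP rats had 120, 128 and 99.6 CPM and the BN-P18 rats 75.0, 63.4 and 72.0 CPM. All 3 pregnant BN rats were below the other 9 rats. Means ± SD (n = 3) were 116 ± 14.8 in BN-NP, 105 ± 14.1 in CD-P18, 98.7 ± 20.7 in CD-NP and 70.1 ± 6.00 in BN-P18. The order BN-NP, CD-P18, CD-NP overlapped from each group to the next, and BN-P18 stood apart below them.

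Slc26a1 fell by 0.73 on the log2 scale with pregnancy in BN (SE 0.15, edgeR adjusted p = 0.0427), which is 1.65-fold. In CD the difference was 0.09 (SE 0.14, adjusted p = 0.803, 95% interval -0.21 to 0.40). The interaction was -0.82 (SE 0.20, adjusted p = 0.115, 95% interval -1.26 to -0.38) and missed the threshold, so the strains were not shown to differ in this response. It passed with DESeq2 (adjusted p = 0.0129), without a filter on low counts (adjusted p = 0.011) and without CD-NP replicate 1 (-0.98) or BN-NP replicate 3 (-0.92). At day 18 Slc26a1 was lower in BN than in CD (log2 -0.59, SE 0.14, adjusted p = 0.0248), and in non-pregnant rats it did not pass (0.23, SE 0.14, adjusted p = 0.394). The BN pregnancy call was lost without BN-NP replicate 1 or 2 or BN-P18 replicate 2 or 3 (-0.74 to -0.64, adjusted p up to 0.204). The day 18 strain call was lost without BN-P18 replicate 2 (-0.52, adjusted p = 0.106) or CD-P18 replicate 1 (-0.47, adjusted p = 0.114).

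Slco2a1, the prostaglandin uptake carrier, had 118, 117 and 110 CPM in CD-NP rats. The CD-P18 rats had 79.9, 75.5 and 107 CPM, so that the third pregnant rat stood near the non-pregnant ones. The BN-NP rats had 151, 137 and 138 CPM and the BN-P18 rats 144, 140 and 132 CPM. Every BN rat of either stage was above every CD rat. Means ± SD (n = 3) were 142 ± 8.14 in BN-NP, 139 ± 6.18 in BN-P18, 115 ± 4.71 in CD-NP and 87.5 ± 17.1 in CD-P18. In order of level the 2 BN groups overlapped, CD-NP lay apart below them and CD-P18 apart below CD-NP.

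With pregnancy Slco2a1 fell by 0.39 on the log2 scale in CD (SE 0.11, edgeR adjusted p = 0.0717), a 1.31-fold lower level. In BN the difference was -0.03 (SE 0.11, adjusted p = 0.955, 95% interval -0.26 to 0.20). The interaction was 0.36 (SE 0.15, adjusted p = 0.348, 95% interval 0.04 to 0.69) and did not pass. Slco2a1 was 1.59-fold higher in BN at day 18 (log2 0.67, SE 0.11, adjusted p = 0.00196), a call kept with any of the 12 rats left out (0.57 to 0.84). In non-pregnant rats the strain difference was 0.30 (SE 0.11, adjusted p = 0.116, 95% interval 0.07 to 0.53), not called although the groups did not overlap. With DESeq2 its adjusted p passed (0.0861), and only the log2 difference of 0.31 fell short of the threshold of 0.322. The CD pregnancy call was the least stable of the 4 genes' calls between groups: it held in 6 of 12 fits with a rat left out (-0.56 to -0.30) and failed when only the 6 CD rats were fitted (-0.39, adjusted p = 0.155). It was lost without any 1 of the 3 CD-NP rats, CD-P18 replicate 1 or 2, or BN-NP replicate 2. Without CD-P18 replicate 3 the difference was -0.56 and the interaction of 0.53 passed (adjusted p = 0.0642).

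Xpr1, the phosphate exporter, had 81.5, 69.3 and 67.2 CPM in CD-NP rats and 62.9, 68.3 and 63.1 CPM in CD-P18 rats. The BN-NP rats had 83.2, 85.4 and 78.0 CPM and the BN-P18 rats 71.8, 58.4 and 66.5 CPM. The 2 CD groups overlapped and the 2 BN groups did not. Means ± SD (n = 3) were 82.2 ± 3.83 in BN-NP, 72.7 ± 7.74 in CD-NP, 65.6 ± 6.74 in BN-P18 and 64.8 ± 3.07 in CD-P18, and each group overlapped with the next in order of level. The pregnancy difference was -0.17 in CD (SE 0.09, edgeR adjusted p = 0.377, 95% interval -0.36 to 0.03) and -0.33 in BN (SE 0.09, adjusted p = 0.15, 95% interval -0.52 to -0.13). Neither was called, and the interaction was -0.16 (SE 0.13, adjusted p = 0.681). The BN difference passed with DESeq2 (-0.33, adjusted p = 0.0977) and without BN-P18 replicate 1 (-0.39) or CD-NP replicate 1 (-0.32). The strains differed by 0.02 at day 18 (SE 0.09, adjusted p = 0.941, 95% interval -0.18 to 0.21) and by 0.18 in non-pregnant rats (SE 0.09, adjusted p = 0.292).

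**Figure D3:**
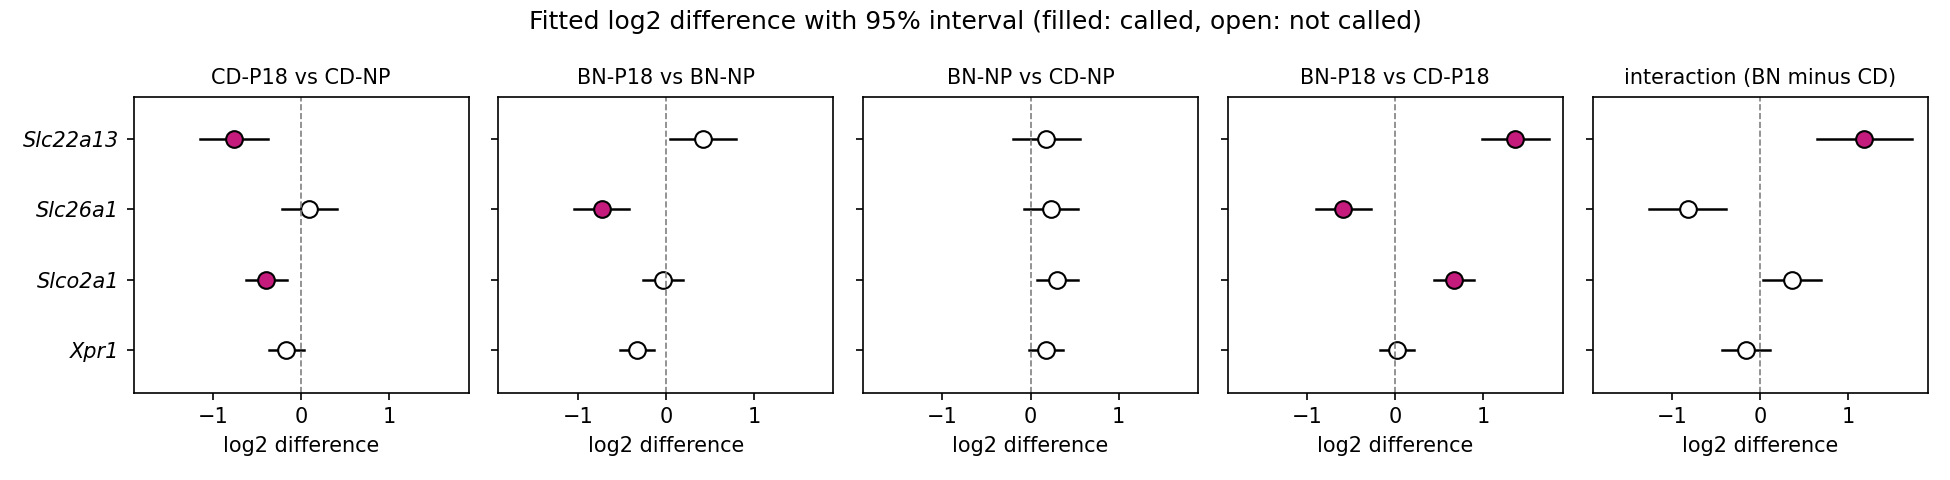
Fitted log2 difference (point) with its 95% interval (line) for each transporter in the 4 comparisons and the interaction. Filled points are called: Slc22a13 and Slco2a1 in CD pregnancy, Slc26a1 in BN pregnancy, those 3 between strains at day 18, and Slc22a13 in the interaction.

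Read against all genes, 2 of 4 members were called in CD-P18 against CD-NP where 4.71% of the 14212 genes tested were called, and 1 of 4 in BN-P18 against BN-NP where 1.40% were. In BN-NP against CD-NP, edgeR called 0 of 4 beside 8.38% of all genes, and 1, Slco2a1, had an unadjusted p under 0.05 (0.0131). DESeq2 also called 0 of 4, but Slco2a1 passed there on the adjusted p (0.0861). It missed only the size threshold, with a log2 difference of 0.31 against 0.322. The edgeR difference of 0.30 lay under that threshold too, so Slco2a1 could not be called at any p. In BN-P18 against CD-P18 edgeR called 3 of 4 beside 9.60%, and in the interaction 1 of 4 beside 0.943%. Groups did not overlap for 2, 2, 1 and 3 of the 4 members in those comparisons between groups. Over all genes the shares without overlap were 21.5%, 14.7%, 24.4% and 26.5%. The comparisons share groups, so these counts are not independent of each other. The members were chosen with earlier results of these data known, so shares above those of all genes are no independent evidence.

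A second test took each gene alone and averaged over the other factor, permuting labels within strain or stage (400 arrangements, two-sided and exact, smallest possible p 0.005). This gave 8 unadjusted tests. Averaged over stages, Slco2a1 was 0.49 log2 CPM higher in BN, with p = 0.005 by exact permutation, the smallest value possible, and Slc22a13 was 0.77 higher (exact permutation p = 0.03). The strain differences of Slc26a1 (-0.17, exact permutation p = 0.375) and Xpr1 (0.10, exact permutation p = 0.19) did not pass 0.05. Averaged over strains, Xpr1 fell by 0.24 log2 CPM with pregnancy (exact permutation p = 0.01), and this held with each rat left out in turn (-0.28 to -0.20, p 0.005 to 0.025 by exact permutation). Xpr1 passed this test over both strains and was called by edgeR in neither strain alone. The pregnancy differences of Slco2a1 (-0.22, exact permutation p = 0.055), Slc26a1 (-0.31, exact permutation p = 0.1) and Slc22a13 (-0.16, exact permutation p = 0.505) did not pass. The Slc22a13 strain difference reached p = 0.05 without BN-NP replicate 3 or CD-NP replicate 1 (0.69 in both, exact permutation).

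**Figure D4:**
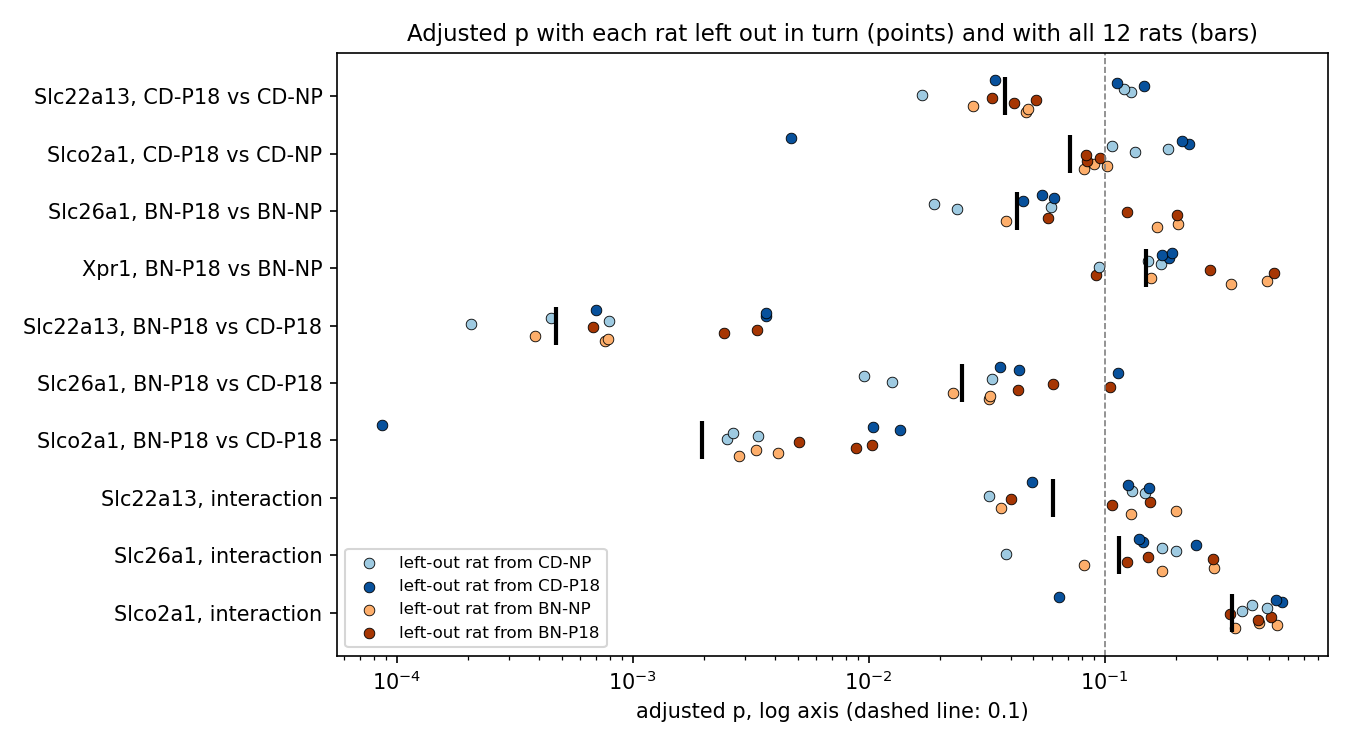
Adjusted p of the called results, of Xpr1 in BN pregnancy and of the Slc26a1 and Slco2a1 interactions, on a log axis with the threshold of 0.1 dashed. Points show the fits with each rat left out in turn (12 per row, coloured by the group of the rat left out), and vertical bars those with all rats. The points of Slc22a13 and Slco2a1 at day 18 between strains stay left of the line, and those of the other results lie on both sides.

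Whole kidney was sequenced, so fewer cells of a type and less RNA per cell cannot be told apart. Cell type markers were examined where a symbol could be paired with an identifier. That was possible only for genes the study listed with a low p in some comparison of these rats. The paired markers thus lean towards changed genes and give no full picture of the cell types. Of 6 proximal tubule markers only Slc5a2, the glucose carrier of the early proximal tubule, had a symbol. It ranged from 133 to 176 CPM in BN-NP and from 86.4 to 123 CPM in BN-P18, a fall of 0.64 on the log2 scale (SE 0.15, edgeR adjusted p = 0.0767) beside that of Slc26a1. In CD its ranges were 166 to 196 and 147 to 203 CPM. Between strains at day 18 Slc5a2 was lower in BN (-0.73, SE 0.15, edgeR adjusted p = 0.00832), as was Slc26a1. In non-pregnant rats Slc5a2 was not called between strains (-0.19, edgeR adjusted p = 0.495). The 3 markers of the straight proximal tubule (Slc7a13, Cyp7b1, Acmsd) summed to 883 to 1170 CPM in BN-NP and 1203 to 1400 CPM in BN-P18, and to 1023 to 1407 and 1068 to 1322 CPM at these stages in CD. Slc7a13 made up most of these sums and was not called in either strain (0.51 in BN, edgeR adjusted p = 0.184, and 0.07 in CD, adjusted p = 0.88), nor was Cyp7b1 (0.02 and 0.12). Acmsd, an enzyme of tryptophan breakdown, fell with pregnancy in both strains. In BN, beside Slc26a1, it fell by 0.79 on the log2 scale, from 129 ± 18.3 to 74.7 ± 12.6 CPM (SD, n = 3, edgeR adjusted p = 0.0427). In CD, beside Slc22a13, it fell by 0.62, from between 132 and 178 CPM to between 83.4 and 116 CPM (n = 3, edgeR adjusted p = 0.051).

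Of 7 endothelial markers, Cdh5 and Tie1 had symbols. Their sum ranged over 156 to 169 CPM in BN-NP, 148 to 153 in CD-NP, 139 to 154 in BN-P18 and 123 to 138 in CD-P18. In both strains the pregnant range lay below the non-pregnant one, and neither marker was called. Podocyte markers (3 of 4 with a symbol) summed to 679 to 887 CPM before and 545 to 610 CPM in pregnancy in CD, and to 698 to 756 and 615 to 697 CPM in BN. Those of the distal convoluted tubule (2 of 3) summed to 886 to 956 and 682 to 720 CPM at these stages in CD and to 758 to 940 and 837 to 940 CPM in BN. Macrophage markers (6 of 7) summed to 99.8 to 118 and 158 to 188 CPM in CD and to 99.1 to 109 and 125 to 137 CPM in BN, and all 6 were called higher in CD pregnancy. The single markers with a symbol of principal cells (Scnn1g), intercalated cells (Slc4a1) and the medullary interstitium (Akap12) were present at 49.6 to 73.7, 285 to 521 and 73.1 to 141 CPM over all rats. In non-pregnant rats Scnn1g (-0.44, SE 0.07, edgeR adjusted p = 0.00268) and Slc4a1 (-0.48, SE 0.13, adjusted p = 0.0506) were lower in BN. Akap12 was higher in BN at day 18 (0.72, SE 0.08, edgeR adjusted p = 0.000159), with an interaction of 0.52 (SE 0.11, adjusted p = 0.0745). With pregnancy Akap12 was not called in CD (-0.23, edgeR adjusted p = 0.166) or BN (0.30, adjusted p = 0.138). No marker of the thick ascending limb could be paired. No paired marker was at 0 in any rat, and the part of these shifts in the transporter results was not tested.

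Other genes of the same pathways had a symbol only if the study listed them with a low p in some comparison of these rats, so the lists lean towards changed genes and their counts are no independent evidence. Of 26 genes for transport of organic anions, organic cations and urate, 10 could be tested. In CD pregnancy 2 of the 10 were called lower, Slc22a13 and Slc17a3, a phosphate carrier family member that exports urate (-0.44, SE 0.13, adjusted p = 0.0858 in edgeR). In BN pregnancy 0 of 10 were called by edgeR, 5 had an unadjusted p under 0.05 and DESeq2 called 1. Their medians were -0.06 and -0.15, beside -0.01 and 0.00 over all genes. Between strains 3 were higher and 1 lower in BN at each stage, with medians of 0.25 in NP and 0.03 at P18 beside 0.00 and 0.01 over all genes. With a rat left out, the NP count of 4 was 0 to 5, with 0 without BN-NP replicate 2 or CD-NP replicate 3 and 2 without BN-NP replicate 1 or 3 or CD-NP replicate 2. The P18 count of 4 was 2 to 4, with 2 without BN-P18 replicate 3 or CD-P18 replicate 1 or 3. The CD pregnancy count was 0 to 2, with 0 without CD-NP replicate 2 or CD-P18 replicate 2. It was 1 when leaving out BN-NP replicate 2 or 3, BN-P18 replicate 2, CD-NP replicate 3 or CD-P18 replicate 1 or 3. The BN pregnancy count was 0 to 2, with 1 without BN-NP replicate 3 and 2 without BN-P18 replicate 1. Slc22a6 (OAT1), the main basolateral organic anion uptake carrier of the proximal tubule, was higher in non-pregnant BN rats (0.59, SE 0.14, edgeR adjusted p = 0.0307), as was the carnitine carrier Slc22a5 (0.39, SE 0.11, adjusted p = 0.0653). Slc17a3 (0.65, SE 0.13, adjusted p = 0.00655) and the urate carrier Slc2a9 (0.57, SE 0.17, adjusted p = 0.0545) were higher in BN at day 18. Slco4c1, an organic anion carrier of the proximal tubule, was lower in BN in NP (-0.59, SE 0.16, edgeR adjusted p = 0.0445) and at P18 (-0.48, SE 0.16, adjusted p = 0.0812).

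Of 18 genes of sulfate and Slc26 anion transport, 5 could be tested, Slc26a1 among them. In CD pregnancy 1 was lower, Slc26a8, an anion carrier known from testis (-0.93, SE 0.20, edgeR adjusted p = 0.0283), which had 11.8 ± 3.14 CPM in CD-NP and 6.14 ± 1.54 in CD-P18 (SD, n = 3). In BN pregnancy 1 was called lower, Slc26a1, while 4 of 5 had an unadjusted p under 0.05. Among them Slc13a2 was at -0.50 (SE 0.16, edgeR adjusted p = 0.241) and Slc26a11 at -0.35 (SE 0.16, adjusted p = 0.458). Slc4a1, also among them, went the other way (0.31, SE 0.13, edgeR adjusted p = 0.435). Without a filter on low counts, 2 of 5 were called. With a rat left out the BN pregnancy count was 0 to 2, with 0 without BN-NP replicate 1 or 2 or BN-P18 replicate 2 or 3 and 2 without BN-P18 replicate 1. The CD pregnancy count was 0 without CD-P18 replicate 3, 2 without BN-P18 replicate 1 and 3 without CD-NP replicate 1, and the NP count of 2 was 1 without BN-NP replicate 1 or 2 or CD-NP replicate 2 or 3. The list medians were 0.17 and -0.35, beside -0.01 and 0.00 over all genes. In non-pregnant rats Slc26a11, a sodium-independent sulfate carrier, was higher in BN (0.88, SE 0.16, edgeR adjusted p = 0.00554) and the chloride and bicarbonate exchanger Slc4a1 lower (-0.48, SE 0.13, adjusted p = 0.0506). At day 18 Slc26a8 was higher in BN (1.12, SE 0.20, edgeR adjusted p = 0.00455), and Slc26a1 and Slc13a2 were lower. Slc13a2, the apical citrate carrier of the proximal tubule, differed between strains at day 18 by -0.77 (SE 0.16, edgeR adjusted p = 0.00996). Its interaction was -0.97 (SE 0.23, adjusted p = 0.0937). The list medians between strains were 0.20 in NP and -0.34 at P18.

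Of 25 prostaglandin genes, 5 could be tested. Slco2a1 was the 1 called lower in CD pregnancy, and 0 of 5 were called in BN pregnancy by edgeR or DESeq2, with 1 at an unadjusted p under 0.05 (medians 0.02 and -0.19). In non-pregnant rats 2 were higher in BN (median 0.30), Slc22a22, an organic anion carrier that also takes up prostaglandins, and Abcc4, a prostaglandin exporter (0.37, SE 0.12, edgeR adjusted p = 0.0842). Slc22a22 was at 1.56 ± 0.542 CPM in BN-NP and 0.316 ± 0.122 in CD-NP (SD, n = 3), a log2 difference of 2.28 (SE 0.51, edgeR adjusted p = 0.0192) at a low level. At day 18 Slco2a1 and the prostaglandin-inactivating reductase Ptgr1 (0.39, SE 0.10, edgeR adjusted p = 0.0254) were higher in BN, and Ptgds, a prostaglandin D2 synthase, was lower (-0.91, SE 0.29, adjusted p = 0.0754), with a list median of 0.15. The P18 count of 3 was 1 without CD-P18 replicate 1, and the NP count of 2 was 1 without BN-NP replicate 2 or 3, BN-P18 replicate 2 or 3, CD-NP replicate 2 or 3 or CD-P18 replicate 2. The CD pregnancy count of 1 was 0 without BN-NP replicate 2, CD-NP replicate 2 or 3 or CD-P18 replicate 1 or 2.

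Of 25 genes of phosphate transport and its regulators, 11 could be tested. In CD pregnancy 1 was higher and 2 lower (median -0.05), in BN pregnancy 1 and 2 (median -0.29), between strains in NP 1 and 1 (median -0.17) and at P18 0 and 4 (median -0.27), while Xpr1 was not called in any of these. The BN pregnancy count of 3 was 0 without BN-NP replicate 1 or 2 and 1 without BN-P18 replicate 2, the P18 count of 4 was 2 without CD-P18 replicate 1, and the CD pregnancy count of 3 was 0 at the stricter thresholds (adjusted p under 0.05 and a log2 difference over 0.585). Fam20c, a kinase of secreted proteins that acts on the phosphate hormone Fgf23, rose in CD pregnancy (0.42, SE 0.07, edgeR adjusted p = 0.00871) and was lower in BN at day 18 (-0.42, SE 0.07, adjusted p = 0.00358). Pth1r, the receptor of parathyroid hormone, fell in CD pregnancy (-0.51, SE 0.10, edgeR adjusted p = 0.0161). Slc9a3r1, the scaffold that holds phosphate carriers in the apical membrane, was lower in BN at day 18 (-0.40, SE 0.08, edgeR adjusted p = 0.00955). So were the phosphate carrier Slc34a2 (-0.96, SE 0.25, edgeR adjusted p = 0.0366) and Pdzk1 (-0.44, SE 0.11, adjusted p = 0.0247). Of the other phosphate carriers, Slc34a1 fell in CD pregnancy (-0.47, SE 0.13, edgeR adjusted p = 0.0818) and Slc34a3 in BN pregnancy (-0.86, SE 0.15, adjusted p = 0.0282). In BN pregnancy Cyp24a1, which degrades active vitamin D, went from 7.96 ± 0.805 to 164 ± 22.4 CPM (edgeR adjusted p = 0.0253), and Cyp27b1, which makes it, from 3.18 ± 2.04 to 0.411 ± 0.130 CPM (adjusted p = 0.0614; SD, n = 3).

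The study reported Slc22a13 as less methylated before its start in pregnant BN than in pregnant CD rats. It found this at a CpG by RRBS and in the surrounding region by immunoprecipitation of methylated DNA. Those positions were not examined here. In the present work methylation was examined at Slco2a1 alone of the 4 genes, in 1 intron on chromosome 8 of Rnor6.0. The study annotated that interval because CpGs there differed between CD groups, so the values chose it and are described without a test. The lists gave 14 CpG positions, counted per strand, of which 11 were read in all 12 RRBS rats and 3 with at least 10 reads in each. At position 111565909 (plus strand, 9 to 45 reads) the CD-NP rats were 0, 58.3 and 41.2% methylated and the CD-P18 rats 91.7, 93.8 and 56.5%. The BN rats were at 90.5% or above there in both stages. The same CpG read on the minus strand at 111565910 (12 to 34 reads) gave 0, 56.3 and 46.7% in CD-NP, 80.8, 100 and 38.2% in CD-P18 and 84.2 to 100% in BN. The CD groups overlapped on both strands, and the strands differed by up to 18.3 percentage points in a rat, with a median of 4.96.

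The neighbouring plus-strand position 111565886 (9 to 46 reads) went the other way in CD, with 61.1, 34.8 and 43.8% in CD-NP and 0, 0 and 25% in CD-P18, and 36.8 to 66.7% in BN. At the position between them, 111565897, the CD-NP (59.1 to 81.1%), CD-P18 (61.1 to 68.8%), BN-NP (65.0 to 82.2%) and BN-P18 (55.6 to 73.7%) rats overlapped. In this assay a rat whose own DNA has T in place of that C is scored as unmethylated. CD rats are outbred, and whether the rats at 0% carried such a base was not tested. The methylation of this intron and the level of Slco2a1 were not related to each other across rats here.

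**Figure D5:**
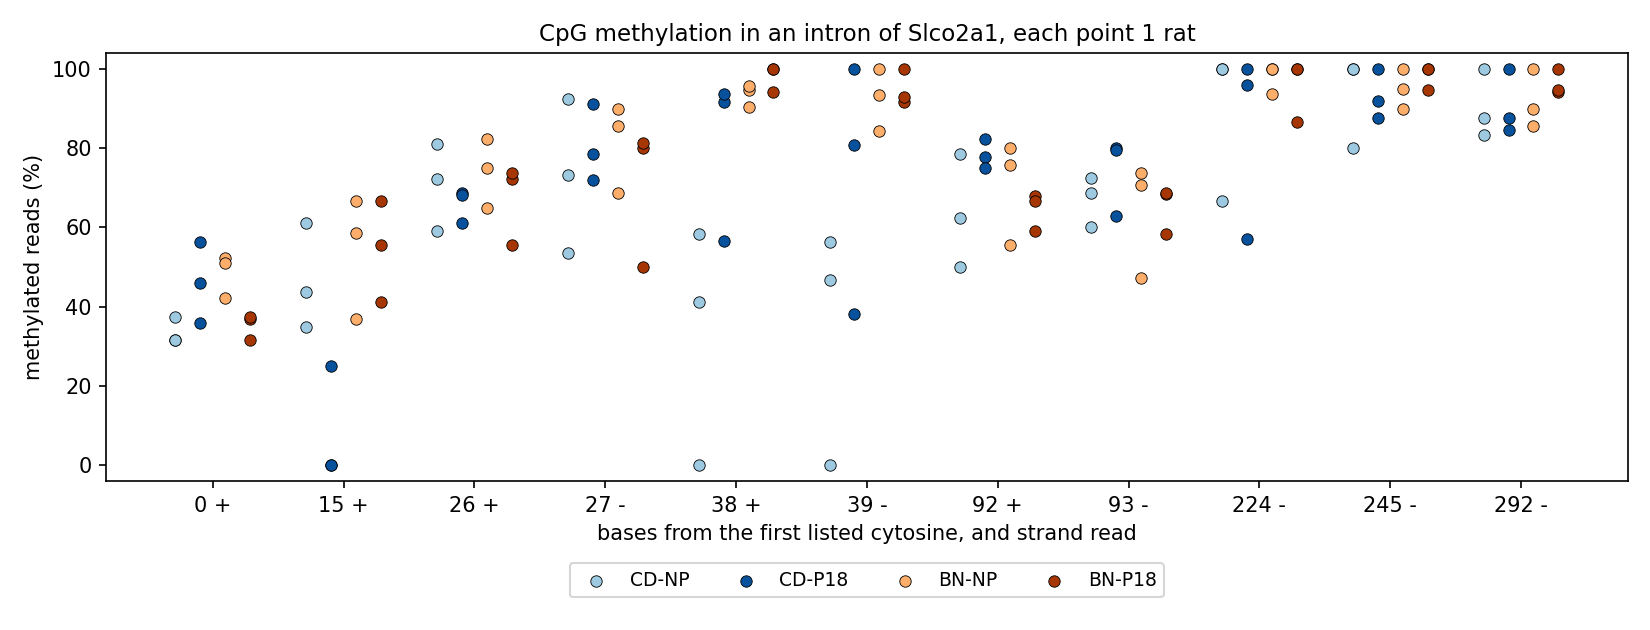
Percent of methylated reads in each rat (points, coloured by group) at the 11 strand positions of the Slco2a1 intron read in all 12 rats, with the horizontal axis giving the bases from the first of them and the strand. CD-NP rats spread from 0 to 58.3% at offset 38, where BN rats lie at 90.5% or above, and CD-P18 rats lie at 0 to 25% at offset 15.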

How the data were processed

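Per the labels and methods, RNA-seq libraries were stranded and depleted of ribosomal RNA. The authors ran Trimmomatic, aligned with STAR 2.5.2 to Rnor6.0, a BN assembly, counted with HTSeq 0.6.1 (versions from the submitters' processing notes), and deposited the raw count of each gene. The annotation release is not given in the sources used here. Between 72.5 and 75.6% of entries per library were counted for no gene, for whatever reason, and stayed out of library sizes. For RRBS the authors used Trim Galore 0.4.5 and Bismark and deposited, per CpG and strand, the percent methylated and the read count behind it (coverage), from 5 reads up.

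Here, edgeR 4.0.16 (R 4.3.3) kept 14212 genes by filterByExpr, scaled by TMM and fitted 1 quasi-likelihood model to the 12 libraries without covariates. Standard errors were derived from the F statistic. DESeq2 1.42.0, other scalings, filters and thresholds, a replicate block and fits with a rat left out were alternatives. Permutation tests used log2 CPM (prior count 2). The fit was tested on simulated counts. No 2 libraries of a group agreed within sampling noise (chi-square per degree of freedom 4.89 to 11.5). Symbols were paired with identifiers by matching fold changes and levels of the study's gene table, which paired 2800 of 3064 symbols with 1 identifier and all 4 transporters with theirs. Named list genes were at most 5 called genes per list with the smallest adjusted p, and in the phosphate list all called genes. The transporters, lists and tests were chosen with earlier results of these data known. Of the 3 genes most like Xpr1, 1 is not reported here.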

Additional observations from a re-analysis of the deposited data

Results flagged for a closer look

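Slc22a13 differed between the strains in its response to pregnancy: the log2 difference with pregnancy was 1.18 greater in BN than in CD (edgeR interaction adjusted p = 0.0606), with every CD-P18 rat below the CD-NP rats and overlapping BN groups. The interaction was called in 4 of 12 fits with a rat left out (1.08 to 1.36), and its adjusted p then ranged from 0.0325 to 0.2.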

How the results depend on the processing

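Over the alternatives that kept all rats, 157 of the transporter values kept their direction and side of the threshold, 4 newly passed and 3 no longer passed. The interaction of Slc26a1 passed with DESeq2 (-0.82, adjusted p = 0.0129), without a filter on low counts (-0.82, adjusted p = 0.011) and with a replicate block (-0.82, adjusted p = 0.038), and Xpr1 in BN pregnancy passed with DESeq2 (-0.33, adjusted p = 0.0977). Slco2a1 in CD pregnancy failed with only the 6 libraries compared (-0.39, adjusted p = 0.155) and, like the Slc22a13 interaction (1.18, adjusted p = 0.0606), under the stricter thresholds (-0.39, adjusted p = 0.0717). These demand an adjusted p under 0.05 and, except for interactions, a log2 difference over 0.585. The cause was not tested for the others. Replicate numbers did not pair the samples: correlations of same-numbered deviations were -0.188 to 0.27, and 5 of 12 libraries correlated best with their own number. The block moved the interaction genes from 134 to 235 and changed no other transporter call.

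With a rat left out, in CD pregnancy the log2 differences were -0.92 to -0.65 for Slc22a13, -0.050 to 0.26 for Slc26a1 (negative without CD-NP replicate 3, -0.050, or CD-P18 replicate 1, -0.021) and -0.56 to -0.30 for Slco2a1. In BN pregnancy they were -0.82 to -0.64 for Slc26a1, -0.059 to 0.016 for Slco2a1 (positive without BN-NP replicate 1, 0.016, or BN-P18 replicate 3, 0.0062) and -0.39 to -0.24 for Xpr1. Between strains at day 18 they were -0.66 to -0.47 for Slc26a1 and -0.052 to 0.094 for Xpr1 (negative without BN-P18 replicate 1, -0.052, or CD-P18 replicate 1, -0.0036, or 3, -0.0026). Interactions were 1.08 to 1.36 for Slc22a13, -0.98 to -0.67 for Slc26a1 and 0.26 to 0.53 for Slco2a1. Permutation differences were 0.69 to 0.84 for Slc22a13 between strains and, with pregnancy, -0.39 to -0.23 for Slc26a1 (exact p under 0.05 without CD-NP replicate 3) and -0.30 to -0.17 for Slco2a1 (exact p under 0.05 in 4 of 12).

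Counts over all genes moved by over 1.5 times as follows. Stricter thresholds called 225 in place of 669 genes in CD pregnancy, 70 in place of 199 in BN pregnancy, 496 in place of 1191 between strains in NP, 616 in place of 1365 at P18 and 64 in place of 134 in the interaction. Without a filter BN pregnancy gave 352 and the interaction 329 genes, DESeq2 gave 330 in the interaction, and only 6 libraries gave 128 in BN pregnancy. Of the pathway lists, DESeq2 called 5 in place of 3 phosphate genes in BN pregnancy, 4 in place of 2 between strains in NP, 2 in place of 1 sulfate gene in CD pregnancy and 1 in place of 0 organic anion genes in BN pregnancy. Stricter thresholds called 0 in place of 3 phosphate and 0 in place of 1 prostaglandin genes and 1 in place of 2 organic anion genes in CD pregnancy. Between strains they called 1 in place of 4 phosphate, 1 in place of 3 prostaglandin and 2 in place of 4 organic anion genes at P18, and in NP 2 in place of 4 organic anion genes and 1 in place of 2 in the sulfate and prostaglandin lists. Without a filter, NP gave 7 in place of 4 organic anion and 4 in place of 2 phosphate genes, BN pregnancy 2 in place of 1 sulfate and 1 in place of 0 organic anion genes, and CD pregnancy 2 in place of 1 sulfate gene, as did the block. A minimum of 1 CPM gave 1 in place of 2 genes in the phosphate and prostaglandin lists in NP. The 6 libraries compared alone gave 0 in place of 1 prostaglandin and 1 in place of 2 organic anion genes in CD pregnancy, and 1 in place of 2 prostaglandin genes in NP. With a rat left out the counts were 327 to 715, 27 to 228, 657 to 1372, 963 to 1460 and 50 to 282. At 3 rats per group, small differences are beyond the reach of these tests. The alternatives planned for CpG tests were not run, because no CpG was tested without a genome of the build of the RRBS files.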

Other observations

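The genes whose log2 CPM followed each transporter most closely over the 12 rats were, by Pearson's r and with no test, Me3 (0.95), Fcamr (0.93) and Sun1 (0.92) for Slc22a13, and Epb41l3 (0.96), the gene ENSRNOG00000001782 (0.95) and Sh3d19 (0.93) for Slc26a1. For Slco2a1 they were Unc5a (0.94), Dnmbp (0.94) and Rbpjl (0.93), and for Xpr1 Eef1akmt3 (0.94) and the amino acid carrier Slc7a8 (0.94). These were among the highest of 14212 genes and share the libraries and the 4 groups. Among the transporters r was 0.85 for Slc22a13 with Slco2a1, 0.64 for Slc26a1 with Xpr1 and -0.63 for Slc22a13 with Slc26a1.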
